A study of Rattus norvegicus with 352 samples.

Results

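The monoamine neuron genes described here are 9 genes that mark the neurons making serotonin, dopamine and noradrenaline, chosen by symbol from the 38354 genes of a brain RNA sequencing table. Tph2, Slc6a4 and Fev belong to serotonin neurons, Th, Slc6a3, Dbh and Slc6a2 to dopamine or noradrenaline neurons, and Ddc and Slc18a2 to all of them. The samples form a single group: naive outbred laboratory rats that received no treatment, from which a whole brain hemisphere was taken as frozen tissue. The labels give no sex, age, strain cross or time of day, no treated or mutant animals are part of the study, and each library was taken as 1 rat. Of the samples named in the labels 97.2% had a library in the table, 10 were not analysed here, and 14 of the libraries were renamed by the submitters after a check of identity. The stated purpose is statistical genetics, so the questions here are how far each monoamine gene differed between rats, which of them moved together, and whether the serotonin genes behaved like the dopamine and noradrenaline genes.

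Monoamine neurons are few and sit in small nuclei of the brainstem and midbrain: serotonin neurons in the raphe, dopamine neurons mostly in the substantia nigra and ventral tegmental area, and noradrenaline neurons in the locus coeruleus and other hindbrain groups. In each of them an enzyme hydroxylates an amino acid, a decarboxylase turns the product into an amine and a vesicular transporter loads it into vesicles. In noradrenaline neurons Dbh also turns dopamine into noradrenaline. A plasma membrane transporter takes the released transmitter back up. The cell bodies hold nearly all of the messenger RNA of these genes, so a whole hemisphere reads them from a small part of the tissue.

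Levels are CPM, the estimated count of a gene scaled to a library total of 1000000. They are not corrected for transcript length, so levels are compared between rats and not between genes. Library totals ran from 5418230 to 42980793 estimated counts with a median of 21881769. All 9 genes passed the filter of a value above 0 in at least 20% of libraries, as did 28940 genes in all. Genes of the cortex, striatum, cerebellum, hypothalamus and hindbrain were present, as a whole hemisphere requires, but brain 4 had 1.05 CPM of the cerebellar granule cell gene Gabra6, against a median of 157.6 CPM over all libraries. Sums over a whole hemisphere cannot tell fewer cells of a type from less RNA per cell, and this holds for every result here.

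Serotonin genes spread widely between rats. Tph2 (chromosome 7, 52571909 to 52676305 on GRCr8), the enzyme that makes serotonin in the brain, had a lowest level of 0.369 CPM, a median of 6.58 CPM and a highest level of 16.4 CPM, with a mean of 7.25 ± 4.73 CPM (SD over all libraries, as for every mean below). Its 5th percentile was 1.03 CPM and its 95th percentile 14.1 CPM, a 13.8-fold range, and 29.8% of libraries lay below 50% of the median. The low values were therefore not a few exceptional rats. Counting error accounted for 1.59% of the variance of Tph2 in CPM.

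Slc6a4 (chromosome 10, 62322688 to 62357060), the serotonin transporter and the target of serotonin reuptake inhibitors, was listed at 0 in 2 libraries, with a median of 3.75 CPM and a highest level of 9.55 CPM. Its mean was 3.87 ± 2.82 CPM, and 34.5% of libraries lay below 50% of the median. Its 5th and 95th percentiles, 0.202 and 8.26 CPM, differed 40.8-fold, but the lower of them is close to what 3 counts are worth in a library, so this fold is less certain than that of Tph2. Fev (chromosome 9, 83887844 to 83891718), an ETS family transcription factor that sets and maintains the serotonin identity of raphe neurons, was low throughout. It was listed at 0 in 61 libraries, where 3 counts would be worth between 0.0978 and 0.554 CPM. Its median was 0.217 CPM and its highest level 1.39 CPM, with a median of 5 estimated counts per library, and counting error made up 21.6% of its variance.

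Th, the tyrosine hydroxylase of both dopamine and noradrenaline neurons (chromosome 1, 207500959 to 207508276), differed far less between most rats. It had a lowest level of 1.45 CPM, a median of 10.4 CPM and a highest level of 16.2 CPM, and its mean was 10.4 ± 2.09 CPM. The 95th percentile, 13.5 CPM, was 2.05 times the 5th percentile, 6.61 CPM. Slc6a3 (chromosome 1, 31537990 to 31578962), the dopamine transporter, is found in dopamine but not noradrenaline neurons. Its lowest level was 0.6001 CPM, its median 6.34 CPM and its highest 8.90 CPM, and its mean was 6.28 ± 1.06 CPM. The same library was the lowest for Th and for Slc6a3. Below 50% of the median lay 6 libraries for Th and 3 for Slc6a3.

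The noradrenaline genes had a narrow body of values and a short tail of low libraries. Dbh (chromosome 3, 30886313 to 30903313), which turns dopamine into noradrenaline, had a lowest level of 0.112 CPM, a median of 2.16 CPM and a highest level of 3.96 CPM, with a mean of 2.13 ± 0.567 CPM. Slc6a2 (chromosome 19, 30183289 to 30228292), the noradrenaline transporter, was listed at 0 in 1 library and had a median of 2.03 CPM and a highest level of 3.44 CPM, with a mean of 1.99 ± 0.558 CPM. Dbh was below 1 CPM in 14 libraries and Slc6a2 in 17. At medians of 47 and 44 estimated counts, counting error made up 32.3% of the variance of Dbh and 31.2% of that of Slc6a2.

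The genes that every monoamine neuron uses differed less between rats than the serotonin genes. Of the 9 genes, Slc18a2 had the smallest SD relative to its mean. Ddc (chromosome 14, 90592304 to 90682830), the decarboxylase that forms both serotonin and dopamine, had a lowest level of 4.33 CPM, a median of 10.5 CPM and a highest level of 19.2 CPM, with a mean of 10.5 ± 2.75 CPM. Slc18a2 (chromosome 1, 268399815 to 268435229), the vesicular monoamine transporter, had a lowest level of 12.9 CPM, a median of 20.6 CPM and a highest level of 27.9 CPM, with a mean of 20.5 ± 2.97 CPM. No library fell below 50% of the median of Slc18a2, and 3 did for Ddc.

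**Figure D1:**
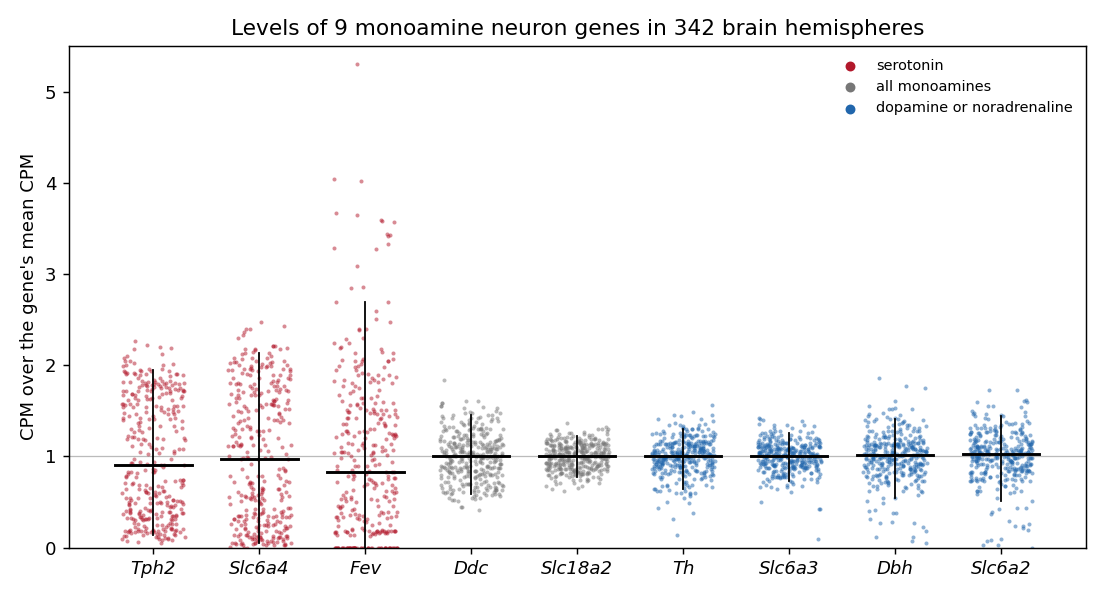
Level of each gene in each library, as CPM over the gene's mean CPM (y axis, linear), with the serotonin genes on the left, the shared genes in the middle and the dopamine or noradrenaline genes on the right. Points are libraries, thick bars medians and thin lines the 5th to 95th percentiles. Points of the serotonin genes fill the range from near 0 to more than the mean, and those of Dbh and Slc6a2 form a narrow band with a low tail.

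Promoter sequence is shown for a gene of each transmitter, because the serotonin genes moved together and apart from Dbh. The windows are the bases before the annotated gene start on GRCr8, from RefSeq, written 5′ to 3′ on the gene's strand. Slc6a4 and Slc6a2 were not in the promoter table used, and the window of Tph2 lay inside the annotated gene. Capitals mark a match, on either strand, to a GATA site (AGATAA, bound by factors such as Gata2 and Gata3, which act in serotonin neuron development) or a cAMP response element (TGACGTCA, known in the rat Th promoter). The Fev window is chr9:83891719-83891968 (minus strand), the Th window chr1:207508277-207508468 (minus strand) and the Dbh window chr3:30886078-30886312 (plus strand).
Fev: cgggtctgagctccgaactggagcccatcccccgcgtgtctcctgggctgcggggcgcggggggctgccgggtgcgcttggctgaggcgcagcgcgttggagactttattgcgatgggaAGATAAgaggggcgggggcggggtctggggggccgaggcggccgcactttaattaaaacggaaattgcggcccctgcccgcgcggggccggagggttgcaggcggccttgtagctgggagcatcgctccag
Th: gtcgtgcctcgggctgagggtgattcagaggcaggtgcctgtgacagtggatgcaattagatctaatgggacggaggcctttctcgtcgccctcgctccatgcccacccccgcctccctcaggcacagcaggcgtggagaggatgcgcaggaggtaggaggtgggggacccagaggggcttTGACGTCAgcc
Dbh: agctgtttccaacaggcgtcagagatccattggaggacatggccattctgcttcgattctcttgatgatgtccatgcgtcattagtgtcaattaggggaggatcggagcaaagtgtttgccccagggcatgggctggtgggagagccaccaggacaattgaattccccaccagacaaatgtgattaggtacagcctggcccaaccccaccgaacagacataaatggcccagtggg
The search used 4 letter strings on both strands: AGATAA, TGACGTCA, the ETS core CGGAAG and the Nr4a2 site AAAGGTCA. AGATAA was in the windows of Fev and Tph2 and in 10.3% of 33469 promoter windows of the same kind. TGACGTCA was in those of Th and Slc18a2 and in 1.59% of all windows. AAAGGTCA was found in the window of Ddc, against 1.24% of all windows, and CGGAAG in that of no member, against 13.9% of all windows. A match is a string of letters and says nothing of binding in these brains.

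The coefficient of variation of each gene beyond counting error put numbers on the difference in spread. It was 64.6% for Tph2 (95% interval 60.02 to 69.6, from 2000 redraws of the libraries), 72% for Slc6a4 (66.4 to 77.7) and 82.1% for Fev (73.3 to 90.9). It was 18.95% for Th (16.8 to 21.2), 14.3% for Slc6a3 (12.1 to 16.5), 21.9% for Dbh (18.3 to 25.5) and 23.3% for Slc6a2 (19.2 to 27.2). The spread of each serotonin gene thus exceeded that of each dopamine or noradrenaline gene, in all 12 pairs. Tph2 over Th gave a ratio of 3.41 (3.08 to 3.81), Tph2 over Slc6a3 4.51 (3.89 to 5.37), and Tph2 over Dbh 2.95 (2.55 to 3.50). The other ratios ran up to 5.74, for Fev over Slc6a3, and the lowest, 2.77 for Tph2 over Slc6a2, had an interval of 2.39 to 3.34. Ddc had 25.3% (23.5 to 27.1) and Slc18a2 13.6% (12.6 to 14.6).

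Spread also depends on the level of a gene, so each was set beside the 200 genes of nearest mean log2(CPM + 1), as a description. Tph2 had an SD of 1.003 on that scale, 5.34 times the median SD of its neighbours, and 2 of the 200 had a larger SD. Slc6a4 had an SD of 1.0, with 1 neighbour above it, and Fev 0.26, with 5 above it. Among the neighbours of Th 14 had a larger SD than its 0.30, and the numbers were 35 for Slc6a3, 26 for Dbh, 23 for Slc6a2, 22 for Slc18a2 and 9 for Ddc.

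Tph2 and Slc6a4 did not fall into separate levels by the rule used, which asked for means at least 4 SD apart and at least 5% of libraries in each level. The best pair of levels for Tph2 lay 3.60 SD apart, at 1.71 and 3.48 log2(CPM + 1), with 41.5% of libraries in the lower, and that for Slc6a4 3.72 SD apart. Both genes met the rule's other condition, a Bayesian information criterion (a measure of fit that counts against added levels) lower by more than 10. With 2 levels rather than 1 it was lower by 83.9 for Tph2 and by 96.7 for Slc6a4. Their values thus fitted 2 levels better than 1, and only the distance between the levels fell short. How many rats lay between the levels was not counted. For Dbh and Slc6a2 the levels lay 4.96 and 5.26 SD apart, but the lower held 4.26% and 4.63% of libraries.

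The serotonin genes rose and fell together across rats. Tph2 and Slc6a4 had a Pearson r of 0.974 and a Spearman rho of 0.958 over all libraries, Tph2 and Fev 0.785 and 0.832, and Slc6a4 and Fev 0.782 and 0.827. Each of these had a permutation p of 1e-05, the smallest that 100000 permutations can give. With 2 libraries dropped, those most distant from the median of Tph2, r was 0.974 with Slc6a4 and 0.785 with Fev. Within the 7 blocks of at least 8 libraries whose identifiers begin alike, the r of Tph2 with Slc6a4 ran from 0.942 to 0.990.

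Among the catecholamine genes the relation was looser. Th and Slc6a3 had an r of 0.631 and a rho of 0.440 (permutation p of 1e-05 for each), and r was 0.517 once the 2 libraries most distant in Th were dropped. Dbh and Slc6a2, which mark the same neurons, had an r of 0.623 and a rho of 0.271 (permutation p of 1e-05 for each). Th with Dbh had an r of 0.412 but a rho of 0.133 (permutation p of 1e-05 and 0.014), so that relation was much weaker in ranks. Slc6a3 with Dbh had an r of 0.299 (1e-05) and a rho of 0.0133 (0.81).

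Between the transmitter systems, Th stood near the serotonin genes. Tph2 and Th had an r of 0.711 and a rho of 0.729 (permutation p of 1e-05 for each), and the r within blocks ran from 0.478 to 0.901. Tph2 and Slc6a3 had an r of 0.338 and a rho of 0.301 (1e-05 for each). Tph2 and Dbh had an r of 0.230 (3e-05) and a rho of 0.0973 (0.073), and r was positive in 5 of 7 blocks. Tph2 and Slc6a2 had an r of 0.245 (2e-05) and a rho of 0.118 (0.03), positive in 6 of 7 blocks. The shared genes followed Tph2 closely, with an r of 0.808 for Ddc and 0.850 for Slc18a2. Their r with Th was 0.642 for Ddc and 0.705 for Slc18a2, and with Dbh 0.128 and 0.250.

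Of the 36 pairs, 36 had a positive r and an adjusted p under 0.05 in limma with Benjamini-Hochberg adjustment over all genes tested, and 30 had a rho with a permutation p under 0.05. These counts need their background: limma called 17.5% of all genes higher with Tph2, 17.4% with Slc6a4, 15.5% with Fev, 16.3% with Th, 17% with Ddc and 16.8% with Slc18a2. It called 7.21% higher with Slc6a3, 5.62% with Dbh and 6.31% with Slc6a2. Under median ratio scaling more genes were called higher: 22.92% with Slc6a4, 20.98% with Fev and 10.12% with Slc6a2, against 29.04%, 25.28% and 10.08% lower. A call between 2 monoamine genes is thus not rare among all genes, and the size of r carries more than the call.

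**Figure D2:**
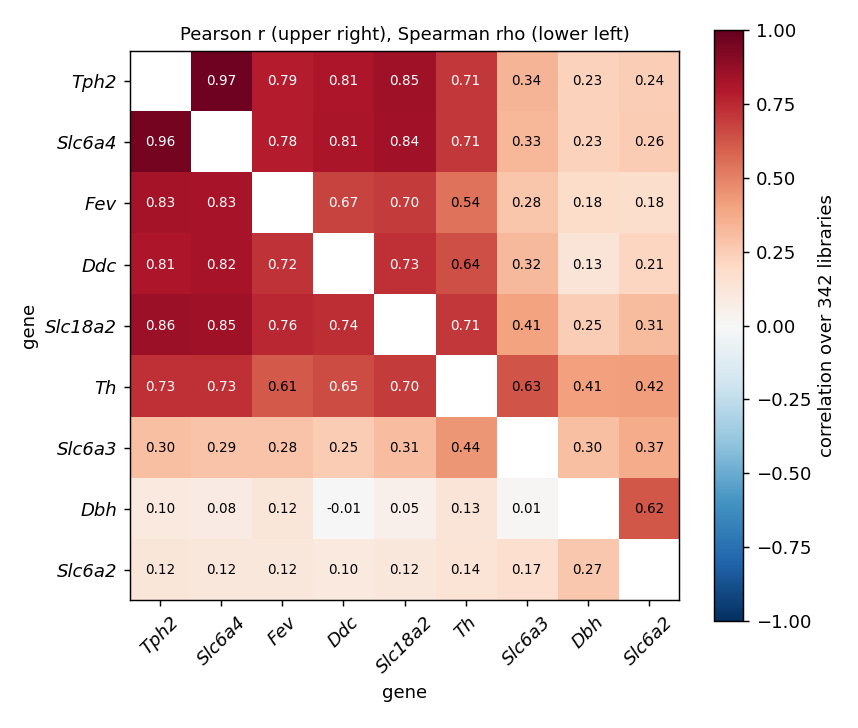
Pearson r (upper right) and Spearman rho (lower left) between the 9 genes over all libraries, on log2(CPM + 1), with color from -1 to 1. The serotonin and shared genes form a block of high values with Th beside it, and the values of Dbh and Slc6a2 with the others are low, with a larger r than rho.

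Straight lines in CPM show how much of each gene went with Tph2. Slc6a4 changed by 0.576 CPM per CPM of Tph2 (95% interval over redraws of the libraries 0.558 to 0.594), and its line met a Tph2 of 0 at -0.306 CPM, so nearly all of its level went with Tph2. The ratio of Slc6a4 to Tph2, in libraries with at least 20 counts of Tph2, had a median of 0.515 with 5th and 95th percentiles of 0.228 and 0.693. Fev changed by 0.0397 CPM per CPM of Tph2 and its line met 0 of Tph2 at -0.0254 CPM.

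The other genes kept most of their level where Tph2 was low. For Th the slope was 0.305 CPM per CPM (0.268 to 0.342) and the line gave 8.15 CPM at a Tph2 of 0, which is 78.7% of the mean of Th. For Ddc that share was 68.4% (65.5 to 71.3) at a slope of 0.456, and for Slc18a2 81.5% (79.9 to 82.9) at a slope of 0.525. For Slc6a3 it was 92.5%, for Dbh 94.6% and for Slc6a2 92.95%. The shared genes thus had a part that went with Tph2 and a larger part that did not.

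**Figure D3:**
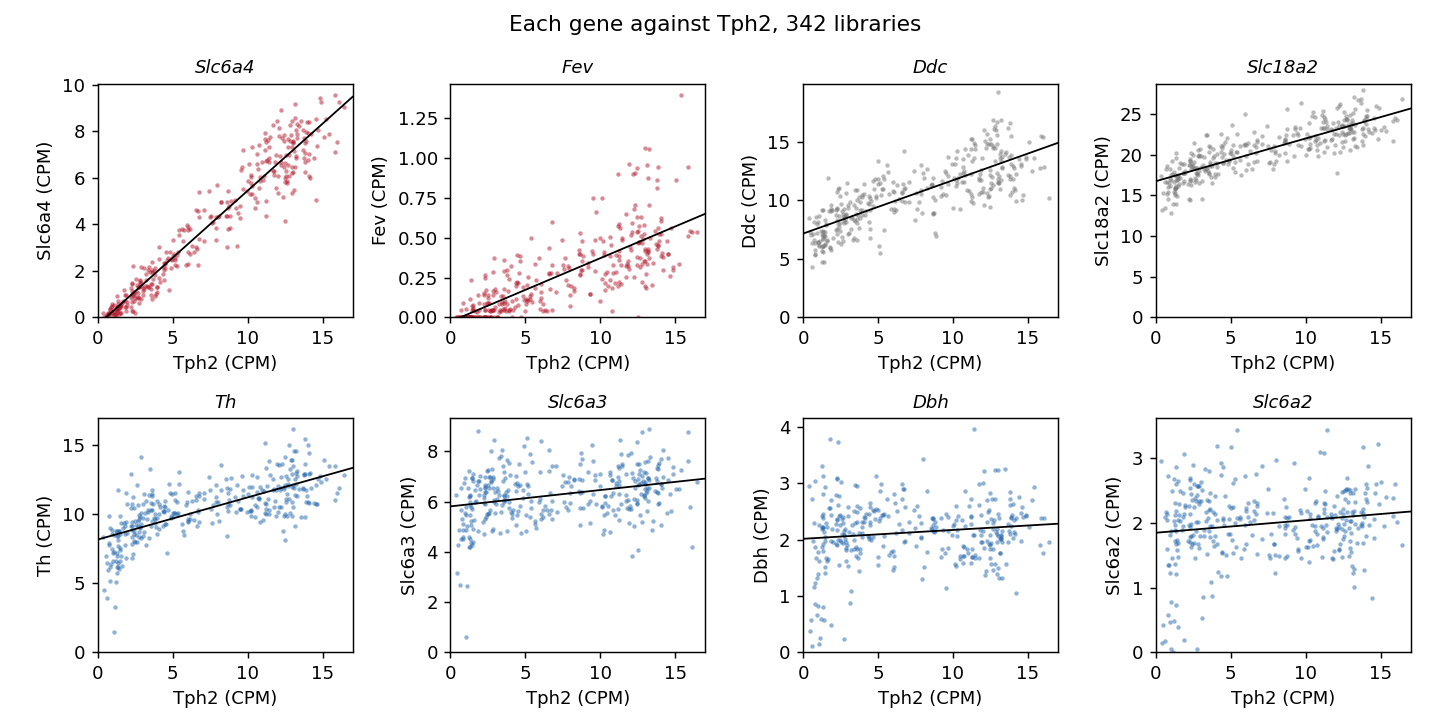
CPM of each of the other 8 genes (y axis) against CPM of Tph2 (x axis), with 1 point per library and the least squares line. The line of Slc6a4 starts near 0, those of Th, Ddc and Slc18a2 rise from a high start, and those of Slc6a3, Dbh and Slc6a2 are nearly flat.

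A small set of libraries carried much of the Pearson r of the noradrenaline genes. In the library lowest in Dbh, Dbh had 0.112 CPM, Slc6a2 0.168 CPM, Tph2 0.615 CPM, Th 3.92 CPM and Slc6a3 2.68 CPM. In the library lowest in Th, Dbh had 0.150 CPM, Slc6a2 0.05001 CPM, Tph2 1.05 CPM, Th 1.45 CPM and Slc6a3 0.6001 CPM, and the hypothalamic peptide genes Pmch and Oxt were at 0.246 and 0 CPM, against medians of 18.1 and 11.1 CPM over all libraries. In brain 4, Dbh had 0.237 CPM and Slc6a2 0.0475 CPM beside 8.36 CPM of Th. All of these libraries were low in Dbh and Slc6a2, and they differed in which other genes were low.

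Of the 10 libraries lowest in Dbh, 9 were also among the 10 lowest in Slc6a2. The 10 lowest shared 6 libraries for Th, 6 for Slc6a4, 5 for Slc18a2, 4 for Slc6a3, 3 for Tph2, 1 for Ddc and none for Fev, where 61 libraries tie at 0. Among hindbrain genes, the same 10 libraries held 7 of the 10 lowest for Glra1, a glycine receptor subunit, and 6 of the 10 lowest for Slc6a5, the glycine transporter of glycinergic neurons. They held 1 of the 10 lowest for Gabra6 and none for Slc17a7, the vesicular glutamate transporter of the cortex. What part the hindbrain share of the tissue had in this was not tested.

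Without the 14 libraries under 1 CPM of Dbh, which also narrows the range of Dbh by construction, the catecholamine relations weakened and those among serotonin genes kept their size. The r of Dbh with Slc6a2 was 0.208 (limma adjusted p 0.917 over all genes), that of Th with Dbh 0.0436 (0.567) and that of Tph2 with Dbh -0.0124 (0.885). The r of Th with Slc6a3 was 0.445 (1.36e-15), that of Tph2 with Slc6a4 0.972 and that of Tph2 with Th 0.722. In these libraries limma called 0 genes higher and 0 lower with Dbh. At an unadjusted p under 0.05, 570 were higher and 709 lower of 28939 genes tested, a threshold that unrelated genes also pass at a rate of 0.05. Over all libraries it called 1627 higher and 2890 lower, or 2690 and 2948 under median ratio scaling. Without those 14 libraries limma also called no gene of the 15 lists described below with Dbh. The adjusted p of 0.917 is taken over all genes with Dbh, so it does not show Dbh and Slc6a2 to be unrelated there. Over all libraries the rho of Dbh with Slc6a2, which uses ranks only, was 0.271 (permutation p of 1e-05).

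**Figure D4:**
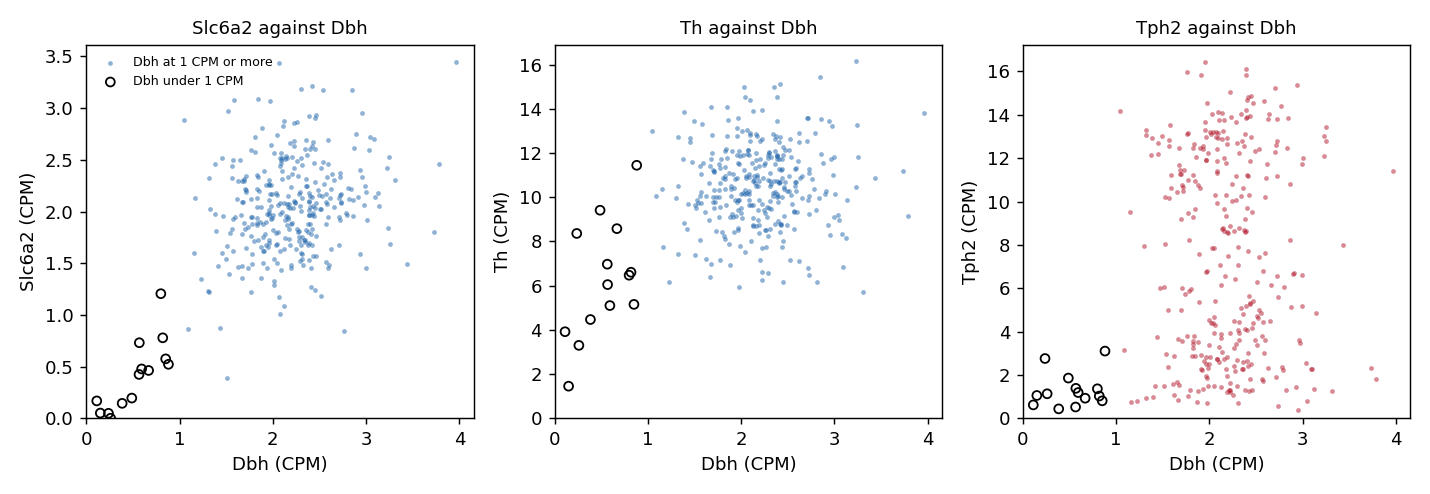
CPM of Slc6a2, Th and Tph2 (y axes) against CPM of Dbh (x axes) in all libraries, with open circles for the 14 libraries under 1 CPM of Dbh. The open circles are low in Slc6a2 and mostly low in Th and Tph2, and among the filled points no slope stands out by eye.

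With Tph2 and Th fitted together, the monoamine genes divided by transmitter. The limma slopes are changes in log2(CPM + 1) per SD of each gene, and the difference tested is the Tph2 slope minus the Th slope. It was 0.91 ± 0.03 (SE) for Slc6a4, 0.22 ± 0.02 for Fev, 0.20 ± 0.03 for Ddc and 0.10 ± 0.01 for Slc18a2, so these 4 genes went with Tph2 more than with Th. It was -0.24 ± 0.03 for Slc6a3, -0.19 ± 0.04 for Dbh and -0.20 ± 0.04 for Slc6a2, which went with Th more. The largest adjusted p of these 7 was 0.00048 (limma with Benjamini-Hochberg adjustment over all genes), and limma called 3.35% of all genes above and 4.53% below, or 3.359% and 2.094% under median ratio scaling. For Slc6a3 the slope on Th was 0.19 and that on Tph2 -0.05. Without the 14 libraries the difference was -0.12 for Slc6a3, and it missed the threshold for Dbh (-0.04, adjusted p 0.449) and Slc6a2 (-0.05, adjusted p 0.359). Under median ratio scaling all 7 kept their direction and call, but on the values as deposited, which carry library size, Ddc and Slc18a2 were below (-0.10 and -0.26).

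With Tph2 and Dbh fitted together, Slc6a2 was below (-0.16 ± 0.02, adjusted p 2.66e-10 in limma) and Slc6a3 did not differ past the threshold (0.01 ± 0.02, adjusted p 0.707 in limma). Slc6a4, Fev, Th, Ddc and Slc18a2 were above, by 0.96, 0.20, 0.12, 0.32 and 0.16. The background was 9.26% of genes above and 16.2% below, or 11.56% and 12.59% under median ratio scaling. Without the 14 libraries Slc6a3 was above (0.06 ± 0.01, adjusted p 0.000199 in limma) and Slc6a2 was at -0.04 (adjusted p 0.0446). On the values as deposited Th missed the threshold (0.02, adjusted p 0.473) and Slc6a3 was below (-0.14, adjusted p 0.00025).

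The genes most like each member, by r over all libraries among genes of mean level 1 or more, differed between the systems. For Tph2 they were Vat1l (r of 0.836), Pou4f1 (0.833), a homeobox factor of the habenula, red nucleus and sensory neurons, the imprinted gene Peg10 (0.830), Prph (0.809), a neurofilament protein of motor and some brainstem neurons, and Trh (0.809), the precursor of thyrotropin releasing hormone. The same 5 genes led for Slc6a4, from 0.827 to 0.798. For Fev the highest were Vat1l (0.678), Pou4f1 (0.669), Prph (0.665), the peptide gene Cartpt (0.663) and the homeobox gene Nkx6-1 (0.662). No gene outside the 9 reached the r of Slc6a4 with Tph2 among those named.

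For Th the most like were Arhgap36 (0.762), the growth factor gene Fgf1 (0.757), Ache (0.753), the acetylcholinesterase, Peg10 (0.750) and Slc17a6 (0.747), the vesicular glutamate transporter of subcortical neurons. For Slc6a3 they were Pmch (0.538), the precursor of melanin concentrating hormone, Slc17a6 (0.513), Dlk1 (0.501), Fgf1 (0.501) and Arhgap36 (0.487). For Dbh they were Glra1 (0.517), Slc6a5 (0.507), the neurofilament gene Nefh (0.497), Spp1 (0.460) and Fgf1 (0.456). For Slc6a2 they were Slc6a5 (0.531), Glra1 (0.521), Nefh (0.501), Spp1 (0.483) and Ahnak2 (0.481). Thus 4 of the 5 genes most like Dbh were also among the 5 most like Slc6a2. For Ddc Slc17a6 came first (0.727) and for Slc18a2 Peg10 (0.806), and Gabrq, a subunit of the GABA-A receptor, was among the 5 of both (0.710 for Ddc and 0.771 for Slc18a2).

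By moderated t, which weighs a difference by its error, the genes that led with a Tph2 slope above their Th slope were Pou4f1 (0.36 ± 0.04), Cfap44 (0.23 ± 0.03), Vat1l (0.10 ± 0.01), Ace (0.15 ± 0.02), the angiotensin converting enzyme, and Clic6 (0.23 ± 0.03). Those that led with a Tph2 slope below, by the same measure, were Pmch (-0.33 ± 0.04), Avp (-0.35 ± 0.05), the vasopressin precursor, Ngef (-0.08 ± 0.01), Kifc2 (-0.10 ± 0.02) and Ptpn5 (-0.12 ± 0.02), a phosphatase enriched in the striatum. Of these, Pmch and Avp had positive Th slopes of 0.26 and 0.22. Adjusted p in limma was at most 2.13e-06 for each of the 10.

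Other genes of serotonin neurons went with Tph2 in part. Of 13 listed, 8 were higher and 2 lower with Tph2, where limma called 17.5% of all genes higher and 33.5% lower, and their median r was 0.36, against -0.05 over all genes tested. Lmx1b, a homeobox factor that serotonin neurons need, had an r of 0.65 with Tph2, Gata3 0.64 and Maob, the amine oxidase that serotonin neurons contain, 0.59. Slc17a8, a vesicular glutamate transporter of some raphe neurons, had 0.45. Some receptor genes of the list did not pass: the autoreceptor genes Htr1a and Htr1b, which many other neurons also express, had r of 0.04 and 0.06. Tac1 and Crhr2 were lower, at -0.15 and -0.18.

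The same list was read against the catecholamine genes. With Th 8 were higher and 0 lower, where 16.3% of all genes were higher and 29.9% lower, at a median r of 0.27. With Dbh 4 were higher and 1 lower, where 5.62% were higher and 9.99% lower, at a median r of 0.08. By the joint fit, Trh (0.24 ± 0.04), Slc17a8 (0.12 ± 0.02), Esm1 (0.12 ± 0.03), Lmx1b (0.09 ± 0.03) and Maob (0.07 ± 0.01) had a Tph2 slope above the Th slope. No gene of the 13 was below, where limma called 3.35% of all genes above and 4.53% below. On the values as deposited 87.47% of all genes had a Tph2 slope below the Th slope, and of the 13 genes 11 did.

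Most genes of dopamine neurons were higher with both Tph2 and Th. Of 15 listed, 13 were higher and 2 lower with Tph2, at a median r of 0.44, and 13 were higher and 2 lower with Th, at 0.40. With Dbh 10 were higher and 0 lower, at 0.18. The shares over all genes were 17.5% higher and 33.5% lower with Tph2, 16.3% and 29.9% with Th, and 5.62% and 9.99% with Dbh. Slc10a4, a vesicular protein of monoamine and cholinergic neurons, had an r of 0.77 with Tph2 and 0.72 with Th, and the midbrain homeobox gene En1 0.72 and 0.63. Ntsr1, the neurotensin receptor of dopamine neurons, had 0.58 and 0.57. In the joint fit 3 of the 15, among them En1, had a Tph2 slope above the Th slope. Over all genes limma called 3.35% above and 4.53% below in that fit. The nicotinic receptor subunit gene Chrna6, with 0.19 and 0.35, had a Tph2 slope below it (-0.12 ± 0.03, adjusted p 0.0039 in limma). Nr4a2, which dopamine neurons need but which cortical neurons also express, was lower with both, at -0.13 each.

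Of 10 listed genes of noradrenaline neurons, 9 were higher and 1 lower with Tph2 (17.5% and 33.5% over all genes), at a median r of 0.33. With Th 9 were higher and 1 lower (16.3% and 29.9%), at 0.28, and with Dbh 7 were higher and 0 lower (5.62% and 9.99%), at 0.21. The calcitonin receptor gene Calcr had 0.76 with Tph2, 0.74 with Th and 0.22 with Dbh, and the peptide gene Gal 0.63, 0.63 and 0.23. None of the 10 differed between the Tph2 and Th slopes by the adjusted p of limma, where 3.35% of all genes were above and 4.53% below.

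Most listed genes of cofactor supply, breakdown and storage were higher with Tph2 and with Th. Of 13 listed, 10 were higher and 1 lower with Tph2 (17.5% and 33.5% over all genes). With Th these were 10 and 1 (16.3% and 29.9%), and with Dbh 4 and 0 (5.62% and 9.99%). Gch1, the first enzyme of the cofactor tetrahydrobiopterin that both Tph2 and Th need, had an r of 0.61 with Tph2 and 0.46 with Th and a Tph2 slope above the Th slope (0.22 ± 0.05, adjusted p 0.00039 in limma). Pcbd1 and Qdpr, which recycle that cofactor, had 0.54 and 0.34 with Tph2. Slc18a1, the vesicular transporter of endocrine cells, was lower with Tph2 (-0.38) and with Th (-0.33).

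Genes that mark brain regions moved with the monoamine genes. Of 15 hindbrain and glycinergic genes, mostly Hox genes, 15 were higher with Tph2, 14 with Th and 15 with Dbh, at median r of 0.58, 0.45 and 0.33. Over all genes 17.5%, 16.3% and 5.62% were higher. In the joint fit 11 of the 15 had a Tph2 slope above the Th slope, among them Hoxb3 (0.24 ± 0.05) and Hoxd3 (0.21 ± 0.04). Limma called 3.35% of all genes above. Under median ratio scaling 10 of the 15 were above, against 3.359% of all genes. On the values as deposited 2 were above and 3 below, against 0.07257% and 87.47% of all genes. There the median difference of the list was 0.13, against -0.49 over all genes. Glra1 had r of 0.68 with Tph2, 0.61 with Th and 0.52 with Dbh, and Slc6a5 0.67, 0.57 and 0.51. Of 10 midbrain genes 10 were higher with Tph2, 10 with Th and 8 with Dbh, and Pax7 had 0.60, 0.48 and 0.11. The hindbrain genes were thus higher in the rats with more Tph2, and the part this had in the spread of the serotonin genes was not tested.

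Striatal and cortical genes ran the other way on CPM. Of 10 striatal genes 10 were lower with Tph2, 8 with Th and 4 with Dbh, where limma called 33.5%, 29.9% and 9.99% of all genes lower. The dopamine receptor genes Drd1 and Drd2, which lie on the cells that receive dopamine, had r of -0.55 and -0.37 with Tph2 and -0.38 and -0.19 with Th. In the joint fit 7 of the 10 had a Tph2 slope below the Th slope, as did 4.53% of all genes. Of 10 cortical and hippocampal genes 9 were lower with Tph2, 9 with Th and 9 with Dbh. The exception was Prox1, higher with each, at 0.19, 0.12 and 0.15. Slc17a7 had -0.66, -0.56 and -0.29. On the values as deposited, where library size enters each gene, both lists turned, with 8 striatal and 10 cortical genes higher with Tph2. There limma called 57.21% of all genes higher with Tph2. The median r with Tph2 was 0.19 for the striatal and 0.18 for the cortical list, near the 0.17 of all genes.

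Some hypothalamic peptide genes had different slopes on Tph2 and Th. Of 11 listed, 8 were higher and 2 lower with Tph2, where limma called 17.5% of all genes higher and 33.5% lower. With Th, which is also made in the hypothalamus, 9 were higher and 1 lower, against 16.3% and 29.9%. In the joint fit, where 4.53% of all genes were below and 3.35% above, 5 had a Tph2 slope below the Th slope: Avp, Pmch, Oxt (-0.21 ± 0.05), Hcrt (-0.11 ± 0.04) and Npy (-0.08 ± 0.02). Avp had an r of 0.04 with Tph2 and 0.29 with Th, and Oxt 0.53 and 0.66. Trh and Crh were above, at 0.24 ± 0.04 and 0.11 ± 0.03. Without the 14 libraries under 1 CPM of Dbh 3 of the 11 were below and 2 above. Of 12 cerebellar genes 11 were higher with Tph2, 10 with Th and 12 with Dbh, against 17.5%, 16.3% and 5.62% of all genes. In the joint fit with Th, 1 of the 12 had differing slopes. Without the 14 libraries under 1 CPM of Dbh, 10 were higher with Tph2, 0 with Th and 0 with Dbh, and 1 was lower with Th. Under that exclusion 10 of the 12 had a Tph2 slope above the Th slope, as did 5.605% of all genes.

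**Figure D5:**
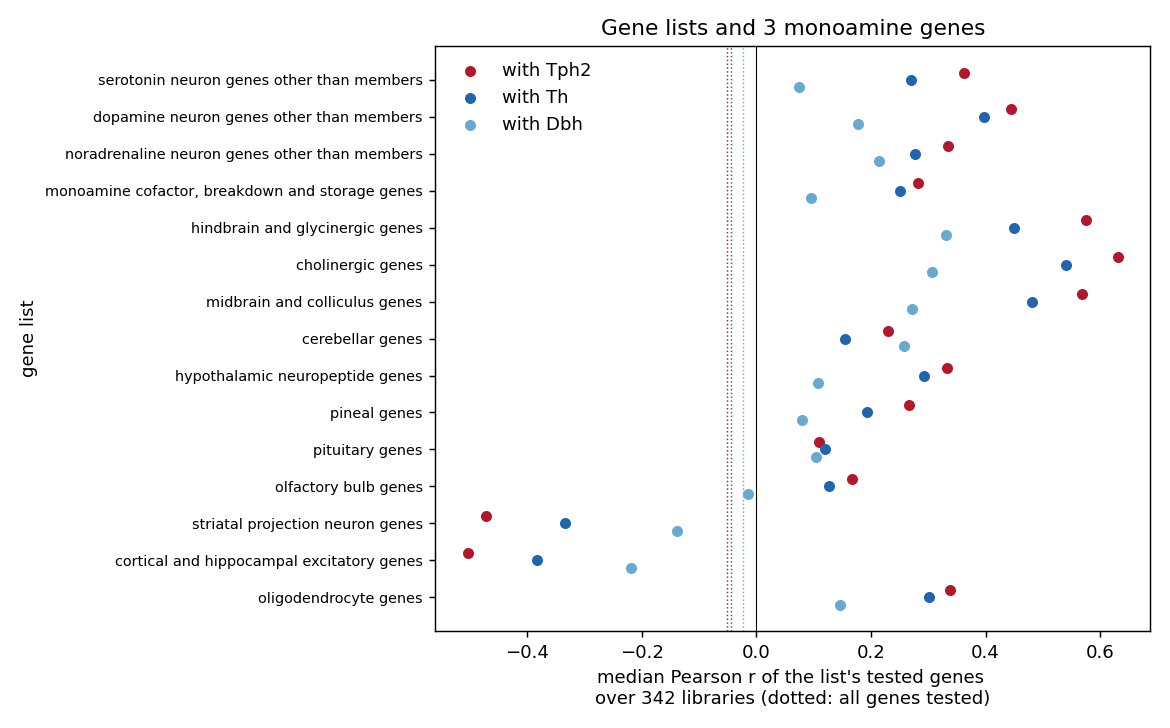
Median Pearson r over all libraries (x axis) of the tested genes of 15 lists (y axis) with Tph2, Th and Dbh. Dotted lines give the median of all genes tested. Hindbrain, midbrain and cholinergic lists lie to the right, striatal and cortical lists to the left, and the values with Dbh lie nearer 0 for most lists.

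Depth and the identifier blocks did not move with the monoamine genes. The r of the 9 genes with the log2 library total ran from -0.05 to 0.08. Between the 7 blocks of at least 8 libraries, whose meaning the labels do not give, no member differed by limma's moderated F-test with Benjamini-Hochberg adjustment, where 3.49% of all genes did. Dbh came nearest, with block means from 1.54 to 2.37 CPM (adjusted p 0.192 in limma). Tph2 had block means from 5.88 to 7.87 CPM against an SD within blocks of 4.76 CPM (adjusted p 0.766 in limma). The first principal component of all genes, 13.01% of the variance, had an absolute r of 0.699 with Tph2, 0.706 with Slc6a4, 0.601 with Th and 0.271 with Dbh.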

How the data were processed

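PolyA RNA of frozen whole brain hemispheres was extracted with TRIzol and made into directional NEBNext libraries, per the labels' protocols. The submitters' processing notes name kallisto, with its settings not given in the sources used here. As deposited, the table holds log2 values that the authors left unscaled for depth: 2 to the power of the value, minus 1, gives estimated counts, of which 63.2% of those between 0.5 and 5 are whole within 0.002. Whether the counting used strand is not stated there.

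Estimated counts were scaled to CPM, and levels are log2(CPM + 1). The libraries are 1 group, n = 342. The labels do not spell out that each library is a separate animal, so a p-value here measures library spread, which may be technical in part. No pair of libraries was a repeat: the highest r between libraries was 0.997, and for the nearest pair chi-square over its degrees of freedom was 7.41. Genes above 0 in 20% of libraries were fitted with limma 3.58.1 (R 4.3.3) with a mean-variance trend, on the SD-scaled level of a member, on Tph2 with Th or Dbh together, or on identifier block, with Benjamini-Hochberg adjustment over all genes tested and 0.05 as the threshold. Permutation tests of r and rho were two-sided, and intervals came from 2000 redraws of the libraries. Counting error was taken as Poisson on the estimated counts. The fits were tested on simulated data.

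The 9 members and the 15 gene lists were chosen with earlier results of these data known. Named genes are the members, the 5 genes of highest r with each member among named genes of mean level 1 or more, the 5 of largest moderated t in each direction of the Tph2 and Th contrast, and up to 4 genes of each list by r with Tph2 and up to 4 with Th. Other list genes named, and the libraries under 1 CPM of Dbh, were chosen after their values were seen. A few list genes are not reported here by name. Coordinates and promoters are RefSeq's on GRCr8, and each member's start site in the table matched an end of its gene there. Alternatives were another pseudocount (0.1), scaling by median ratios, no scaling, other filters, block or library total as covariate, and exclusions of libraries.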

Additional observations from a re-analysis of the deposited data

How the results depend on the processing

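Of 388 alternatives for the r of pairs of members, 372 kept their call, 11 lost it and 5 changed sign. All 5 changes of sign came without the 14 libraries under 1 CPM of Dbh, where r with Dbh was -0.0124 for Tph2, -0.0190 for Slc6a4, -0.0516 for Slc6a3, -0.0972 for Ddc and -0.0658 for Slc18a2. That exclusion, chosen after seeing the data, gave 0.0436 for Th with Dbh and 0.208 for Dbh with Slc6a2, 0% of genes higher and 0% lower with Dbh in limma (570 and 709 genes at an unadjusted p under 0.05), 5.605% of genes with a Tph2 slope above the Th slope (3.35% with all libraries), and ratios of spread of Tph2 of 3.745 over Th, 5.145 over Slc6a3, 4.067 over Dbh and 3.829 over Slc6a2. The values as deposited, which are not scaled for depth, gave ratios of 2.4, 2.551, 2.232 and 2.124 in the same order. They gave 57.21% of genes higher and 0.9399% lower with Tph2, 87.56% and 0.003456% with Th, and 82.91% and 0.04147% with Dbh, 0.07257% above and 87.47% below for Tph2 minus Th, 0.6704% and 67.92% for Tph2 minus Dbh, and 8.528% differing between blocks. Median ratio scaling gave 9.295% of genes higher and 10.19% lower with Dbh, against 5.62% and 9.99%, and 3.359% above and 2.094% below for Tph2 minus Th, against 3.35% and 4.53%. That last share was 2.934% without the renamed libraries and 2.747% with block as covariate, which left 2.098% above. Genes differing between blocks were 2.232% without the renamed libraries and 1.282% without the smallest totals, against 3.49%. The cause was not tested, except that library size enters every value as deposited by construction. Leaving out brain 4 moved no r across its threshold. Fev has a mean level under 1 and gave no value under that minimum. No paired analysis was possible because the samples form a single group.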

Other observations

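Most cholinergic genes moved with the monoamine genes. Of 7 listed, 5 were higher with Tph2, 7 with Th and 4 with Dbh, where limma called 17.5%, 16.3% and 5.62% of all genes higher. Slc18a3, the vesicular acetylcholine transporter, had r of 0.68 with Tph2, 0.63 with Th and 0.39 with Dbh, and Chat, which makes acetylcholine, 0.63, 0.59 and 0.31. Lhx8, a factor of forebrain cholinergic neurons, had 0.02 with Tph2 and 0.17 with Th, and its Tph2 slope was below its Th slope (-0.11 ± 0.03, adjusted p 0.0071 in limma).

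Pineal, pituitary, olfactory and oligodendrocyte genes were also read beside the members. Over all genes limma called 17.5% higher and 33.5% lower with Tph2, 16.3% higher with Th and 5.62% higher with Dbh. Of 9 pineal genes, 8 were higher with Tph2, 7 with Th and 1 with Dbh. Tph1, the tryptophan hydroxylase of the pineal gland, had an r of 0.27 with Tph2. The median r of the pineal list was 0.43 with Ddc, which the pineal gland also makes, against 0.27 with Tph2. Of 8 pituitary genes tested, 4 were higher with Tph2, among them Pomc (0.60), Cga (0.59) and Tshb (0.49), while the prolactin gene Prl and the growth hormone gene Gh1 were above 0 in too few libraries to be tested. Of 9 olfactory bulb genes 5 were higher and 2 lower with Tph2. Of 10 oligodendrocyte genes 8 were higher with Tph2 and 8 with Th. None had a Tph2 slope that differed from the Th slope, where 3.35% of all genes were above and 4.53% below.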
